A study of Columba livia with 4 samples.

Results

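SOX10 peaks at the edges of acetylated chromatin are described here in primary melanocytes of the pigeon (Columba livia). They are the SOX10 peaks that shared no base with a region of H3K27ac (histone H3 acetylated at lysine 27) or of H3K27me3 (the same lysine trimethylated), and whose summit lay within 2 kb of the nearest H3K27ac region on the same scaffold. Of 6579 SOX10 peaks, 838 met this rule, which is 12.7% (exact 95% binomial interval 11.9 to 13.6%). They made up 31.3% of the 2681 SOX10 peaks that lay in neither mark. Which peaks these are was decided by the positions of the SOX10, H3K27ac and H3K27me3 peaks, so the members were chosen by measured distance, and the distance itself is given as a description.

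SOX10 is a transcription factor with a DNA-binding HMG box. It is needed for the neural crest to give rise to pigment cells and glia, and in melanocytes it acts with MITF on pigment genes. Promoters and enhancers in use carry H3K27ac, while H3K27me3 is the product of the Polycomb complex PRC2 and marks silenced loci. Histone marks sit on nucleosomes, whereas transcription factors often occupy the stretch of DNA between nucleosomes, so a factor and the mark around it need not peak at the same base.

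All cells were wild-type primary melanocytes, which make the pigment of feathers and skin. Every library came from the same culture conditions, a Ham's F10 medium with 10% fetal bovine serum, 5% Nu-serum, 10 ng/mL endothelin-3, 85 nM of the phorbol ester TPA and 40 ng/mL cholera toxin. There was 1 library each for SOX10, H3K27ac, H3K27me3 and input chromatin, and peak lists of the first 3 were used. No value below has a replicate error, no test across samples could be made, and the intervals given for shares and densities cover counting error only. The sources used here give neither the read totals nor the number of donors, and the identity of the cells could not be checked against marker genes, since no gene annotation of this assembly was used here. For the same reason positions are given by scaffold and no gene or sequence is named.

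Most of these SOX10 peaks lay close to the acetylated region rather than anywhere within the 2 kb allowed. The distance from summit to nearest H3K27ac base ran from 28 to 1996 bp, with a median of 220.5 bp and quartiles of 148 and 368 bp. Between 101 and 300 bp lay 519 of the 838 summits, which is 61.9% (58.5 to 65.2%). Within 400 bp lay 642, or 76.6% (73.6 to 79.4%), a limit that was chosen after the distances were seen. Steps of 100 bp held 48, 332, 187 and 75 summits going outward from the edge, and the next step, from 401 to 500 bp, held 24. From 801 bp outward no step held more than 14. SOX10 peaks were at least 131 bp wide, which leaves little room in the first step for a summit whose peak shares no base with the region.

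The same rule was applied to SOX10 intervals moved along their scaffold, to show what the layout of the marks alone gives. Every SOX10 peak was moved by 20 fixed offsets of 20 to 200 kb in both directions. Of the moved intervals, 10.3% met the rule, with a median of 9.84% and a range of 8.53 to 13.7% over the offsets, against the 12.7% observed. Ratios to moved intervals are taken to the median over the offsets, here 1.29. As a share of all intervals, the total was therefore within the range of the moved intervals. Among intervals in neither mark it was not. There 31.3% of SOX10 peaks met the rule, against 11.1% of moved intervals (9.61 to 16.1%), a ratio of 2.82. With offsets of 4 to 20 kb the moved value was 17.2% (16.1 to 25.1%). The intervals also differed in where they lay. The median distance was 927 bp for moved intervals (847 to 979 bp over the offsets), against 220.5 bp. Within 400 bp lay 97.6 members per 1000 SOX10 peaks, against 21.2 per 1000 moved intervals (17.0 to 34.4), a ratio of 4.61. From 401 to 2000 bp the order was turned round, with 29.8 against 78.5 per 1000 (67.4 to 107.9). Both rates are per 1000 of all intervals. In neither mark lay 2681 of the 6579 SOX10 peaks, but most moved intervals at every offset. That lowers each observed rate outside the marks relative to the moved one. The order thus does not by itself show fewer SOX10 peaks there. The step of 101 to 200 bp stood out most, with 50.5 members per 1000 (45.2 to 56.2) against 6.23 (4.44 to 8.53), a ratio of 8.10. A pair of choices changes the comparison of totals over all intervals. With offsets of 4 to 20 kb the ratio of observed to moved intervals was 0.885. With a distance of up to 5 kb it was 0.789. With the shorter offsets the ratio within 400 bp was 2.96.

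**Figure D1:**
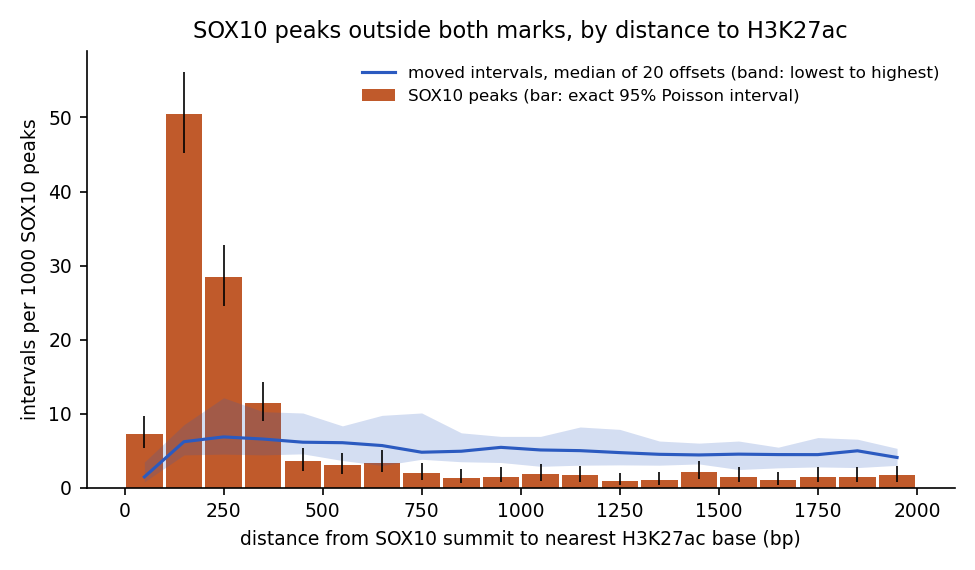
SOX10 peaks outside both marks per 1000 SOX10 peaks (vertical axis), by distance in bp from the summit to the nearest H3K27ac base (horizontal axis, steps of 100 bp). Bars are the 838 observed peaks with exact 95% Poisson intervals, and the line and band are the median and the lowest to highest value of 20 fixed offsets; the bars stand above the band up to 400 bp and mostly below it farther out.

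The density of SOX10 summits per Mb of sequence, taken without moving any interval, was likewise highest outside at 101 to 200 bp and fell from there to 400 bp. The first step differed, since it held fewer members than that of 201 to 300 bp but had no lower density here. For this measure all SOX10 summits were counted, including the 323 peaks that overlapped H3K27ac with their summit outside it, and divided by the sequence at that distance from an edge. Just outside the edge, from 1 to 100 bp, there were 37.4 summits per Mb (exact 95% Poisson interval 32.9 to 42.4). From 101 to 200 bp there were 67.0 per Mb (60.9 to 73.6), from 201 to 300 bp 34.8 (30.1 to 39.9) and from 301 to 400 bp 14.5 (11.4 to 18.1). From 401 to 500 bp there were 4.97 per Mb (3.21 to 7.33), and between 2001 and 5000 bp 2.55 per Mb (2.23 to 2.90). The steps from 501 to 2000 bp ran from 1.49 to 4.73 per Mb, and no interval of theirs lay wholly below 2.55. Beyond 20 kb the density was 1.68 per Mb (1.58 to 1.79). Inside acetylated regions the density was lowest beside the edge, at 26.7 per Mb (23.0 to 30.9) in the outermost 100 bp. At a depth of 901 to 1000 bp it was 139 per Mb (119 to 162). Only wide regions reach that depth, and the sequence counted fell from 6.84 to 1.19 Mb. The steps inside thus hold different sets of regions, and depth was not separated from width. The density 101 to 200 bp outside a region was thus higher than at the same depth inside it, 29.9 per Mb (25.7 to 34.5), and the intervals did not overlap.

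**Figure D2:**
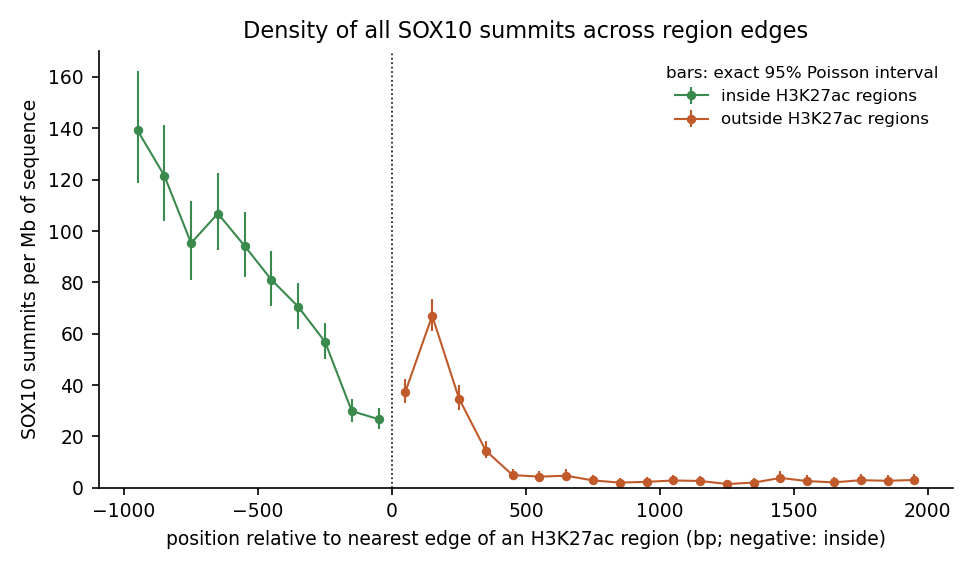
Density of all SOX10 summits, in summits per Mb of sequence (vertical axis), by position in bp relative to the nearest edge of an H3K27ac region (horizontal axis, negative values inside the region). Points are steps of 100 bp with exact 95% Poisson intervals; the density outside is 67.0 per Mb at 101 to 200 bp and under 5 per Mb from 401 bp on.

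The second question was whether these sites lay between acetylated peaks or outside them. H3K27ac peaks were joined into runs over gaps of up to 5 kb, which gave 17608 runs and 16615 gaps. In such a gap lay 325 of the 838 members, or 38.8% (35.5 to 42.2%), and 513 lay beyond the end of a run. Of moved intervals that met the rule, 25.9% lay in a gap (23.8 to 33.8% over the offsets). Among members within 400 bp the share was 45.3% (41.4 to 49.3%), and moved intervals within 400 bp had 43.9% (36.6 to 54.1%), inside whose range the observed share lay. With offsets of 4 to 20 kb the shares of moved intervals were 34.9% in all (30.2 to 47.0%), a range that holds the observed 38.8%, and 55.4% within 400 bp (47.2 to 66.0%), which is above the observed 45.3%. Over all members, the observed share in gaps thus lay above moved intervals with the longer offsets and not with the shorter ones. Within 400 bp it lay above neither. Farther out, from 401 to 2000 bp, 34 of 196 members (17.3%) lay in a gap.

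SOX10 peaks of the gaps were mostly in narrow ones. The gap around a member had a median width of 525 bp (quartiles 385 and 1696 bp), against 913 bp over all gaps (471 and 2148 bp). Gaps of up to 600 bp, a limit set after the widths were seen, held 189 members. That is 28.7 per 1000 SOX10 peaks, against 1.74 per 1000 moved intervals (0.659 to 2.72), a ratio of 16.5. With offsets of 4 to 20 kb the moved value was 2.75 and the ratio 10.5. Gaps of 301 to 400 bp held 97 members and showed the highest ratio to moved intervals, 23.3. The ratio was 16.2 for gaps of 401 to 500 bp, 11.5 for 501 to 600 bp and 6.46 for 601 to 800 bp. From 801 to 3000 bp the ratios lay between 0.736 and 0.959, with the observed value inside the range of the offsets in each step. Gaps of 3001 to 5000 bp held 40 members, or 6.08 per 1000, below the 11.7 of moved intervals (8.998 to 21.0). These rates are again over all intervals, which lowers the observed values relative to the moved ones. Narrow gaps also admit only short distances to an edge, where members at large stood highest above moved intervals. The part of distance in the ratios by gap width was not tested. The shortest gap in the H3K27ac list was 305 bp, so sites in shorter gaps of signal, if there are any, would count as lying inside a region.

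**Figure D3:**
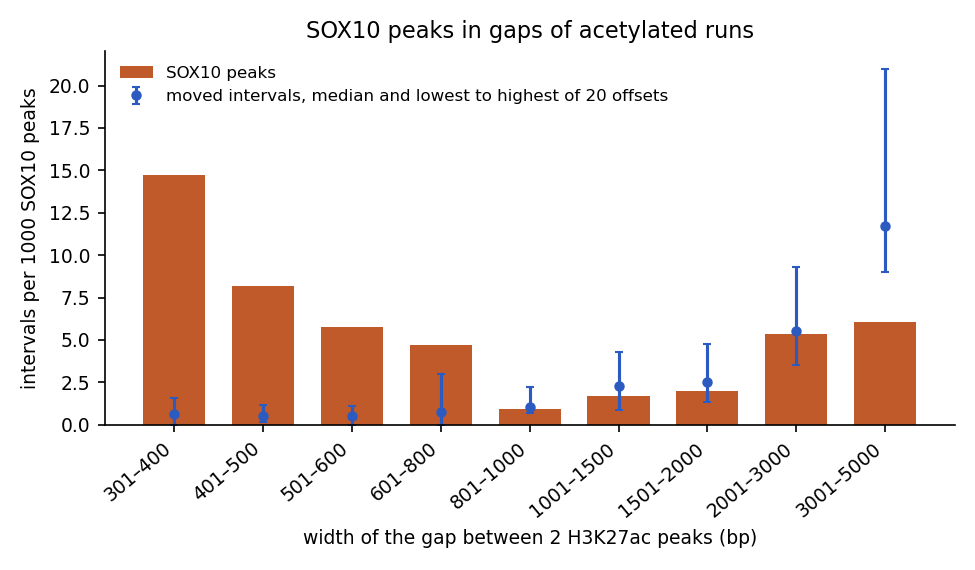
SOX10 peaks in gaps between neighbouring H3K27ac peaks, per 1000 SOX10 peaks (vertical axis), by width of the gap in bp (horizontal axis). Bars are the observed peaks and points with bars the median and the lowest to highest value of 20 fixed offsets; the bars stand above the moved intervals for gaps of up to 800 bp.

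Even so, few narrow gaps held such a site. A member lay in 97 of the 2727 gaps of 301 to 400 bp (3.56%, 2.89 to 4.32%) and in 6 of the 1186 gaps of 801 to 1000 bp (0.506%, 0.186 to 1.10%). The share was 0.954% for gaps of 1501 to 2000 bp, 1.73% for 2001 to 3000 bp and 1.55% for 3001 to 5000 bp, so it did not keep going down with width. In gaps of up to 600 bp the summit lay a median of 47 bp from the centre of the gap (quartiles 23.5 and 74.5 bp). Moved intervals in such gaps lay 68 bp from the centre (42.3 to 116 bp over the offsets), so the observed value was inside their range. With offsets of 4 to 20 kb they lay 69.25 bp from it (51.5 to 78.5 bp), and the observed value was below that range. The rule itself holds a peak near the middle of a narrow gap. In gaps of 601 to 5000 bp the 136 members lay a median of 257 bp from the nearer acetylated peak rather than in the middle. Only 2 gaps held 2 members. Of the regions that flanked the 189 narrow gaps, the wider of each pair had a median width of 970 bp, against 1222 bp over all 5909 gaps of up to 600 bp. For the narrower of each pair the order was the other way, with 538 bp against 495 bp. A flank held a SOX10 summit of its own at 10 of the 189 (5.29%, 2.57 to 9.51%), against 14.7% (13.8 to 15.6%) of all such gaps. These shares were not weighted to like widths of the flanks.

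Members outside a run lay mostly beside a lone acetylated peak. This was so for 376 of the 513 (73.3%, 69.2 to 77.1%), against 55.4% of moved intervals outside a run (50 to 60% over the offsets) and 57.8% of all runs. Their median distance was 266 bp (quartiles 172 and 586 bp), against 174 bp (132 and 243 bp) in gaps, where the width of the gap bounds the distance. Per Mb of sequence at 101 to 200 bp from an edge there were 57.8 members (49.8 to 66.8) in gaps and 43.9 (37.1 to 51.6) outside runs. At 201 to 300 bp the order was the other way, with 26.5 (20.4 to 33.8) in gaps and 36.6 (30.4 to 43.6) outside. Both pairs of intervals overlapped. With all SOX10 summits counted, those at 101 to 200 bp did not, at 80.4 per Mb (70.9 to 90.9) in gaps and 54.3 (46.7 to 62.8) outside. At 201 to 300 bp they did, at 28.5 (22.2 to 36.1) and 39.3 (32.8 to 46.6). Over 1 to 2000 bp there were 13.6 members per Mb (12.2 to 15.2) in gaps and 7.67 (7.02 to 8.36) outside. Gaps have more of their sequence near an edge, so that last pair is not at like distance. Members lay about as often on either side of their nearest region, 424 and 414 times.

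The third question concerned the acetylated region next to the site. These regions were narrower and weaker than acetylated regions at large, and both medians lay below the range of moved intervals. Their median width was 550.5 bp (quartiles 368 and 971 bp), against 721 bp over all 34223 H3K27ac peaks and 762 bp for the regions nearest to moved intervals (663 to 862 bp over the offsets). The median fold enrichment of H3K27ac over local background, a value of the authors' caller, was 3.52 (2.99 and 4.57), against 3.82 over all regions and 3.78 for moved intervals (3.62 to 3.95). Regions that held a SOX10 summit inside them were far wider and stronger, with medians of 2324 bp and 6.45. Beside members in gaps the nearest region had a median of 635 bp, and beside those outside runs 488 bp. Counted by quintiles of the width of all H3K27ac peaks, 215 members lay beside the narrowest quintile (254 to 370 bp) and 72 beside the widest (1710 to 30994 bp).

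Seen from the regions, SOX10 inside and SOX10 beside ran in opposite directions with width. In the narrowest quintile, 3.10% of regions (2.70 to 3.54%) were nearest to a member, and 0.684% (0.503 to 0.909%) held a SOX10 summit. In the widest quintile 1.05% (0.825 to 1.32%) were nearest to a member, and 28.3% (27.3 to 29.4%) held a summit. By H3K27ac fold the share with a member beside it was 2.97% (2.58 to 3.40%) in the lowest quintile and 1.34% (1.08 to 1.65%) in the highest, where 25.2% held a summit. In the lowest 2 quintiles of width and of fold, more regions had SOX10 beside them than inside them. In quintile 2 the shares beside and inside were 3.19% and 1.42% by width, and 2.86% and 2.21% by fold. A wider region offers more sequence for a summit inside it, while beside meant up to 2 kb at any width. The shares were not taken per base, so the part of this in the opposite trends was not tested.

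**Figure D4:**
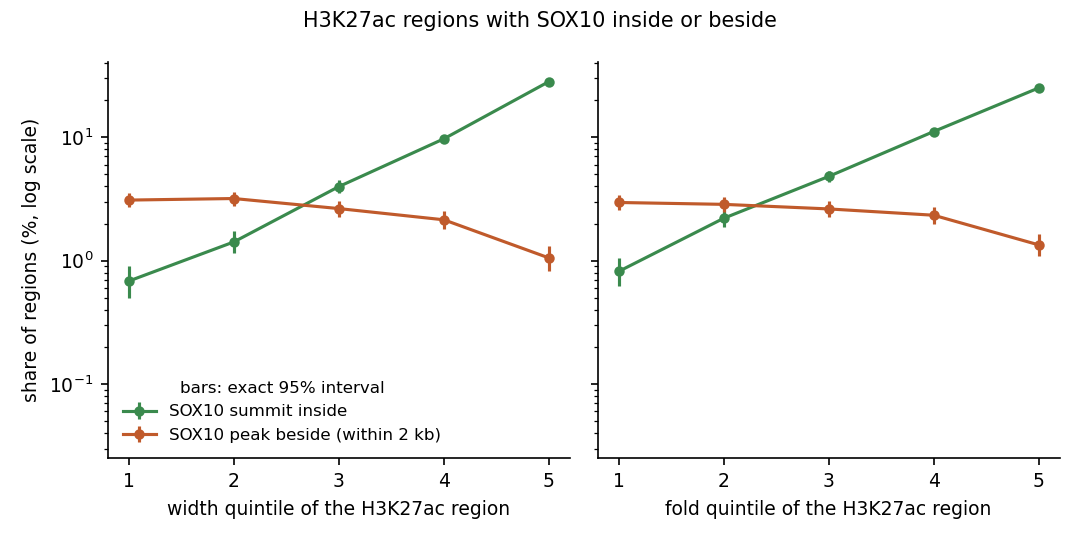
Share of H3K27ac regions in percent (vertical axis, log scale) that held a SOX10 summit or were the nearest region to a SOX10 peak outside both marks within 2 kb, by quintiles of region width (left) and of H3K27ac fold (right, horizontal axes from lowest to highest). Bars are exact 95% binomial intervals; with width the share with a summit inside goes from 0.684 to 28.3% and the share with a peak beside from 3.10 to 1.05%.

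The nearest region seldom held a SOX10 summit of its own. It did so for 37 of 838 members (4.42%, 3.13 to 6.03%), against 8.83% of all H3K27ac regions. Over all members, much of that difference went with width. With the shares of all regions weighted to the widths of the regions beside members, the value was 5.56%, which lies inside the interval of the observed share. For moved intervals it was 10.1% (7.36 to 13.4% over the offsets). Among members within 400 bp the nearest region held a summit at 20 of 642 (3.12%, 1.91 to 4.77%), and among those farther out at 17 of 196 (8.67%, 5.13 to 13.5%). The interval within 400 bp lies below the weighted 5.56%. That weighting used the widths beside all members and was not done for those within 400 bp alone. Over the whole run, 61 of the 325 members in gaps (18.8%, 14.7 to 23.4%) had a SOX10 summit inside some acetylated peak of their run. For moved intervals in gaps this was 42.0% (34.0 to 62.1%), and it depended on how far they were moved, with 72.8% (58.7 to 90.1%) at offsets of 4 to 20 kb. Moved intervals start from SOX10 peaks, many of them inside H3K27ac, so a short move can stay in the run of its own summit. The runs of members in gaps also had a median of 3 acetylated peaks, against 4 when counted over all gaps.

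Most sites were the single such site of their region and run. The 838 members lay beside 831 different regions, of which 7 were nearest to 2 members and 5 had 1 member on each side. They fell on 817 runs, of which 21 had 2 members and 796 had 1. The members are few beside the 34223 regions and 17608 runs, and moved intervals were not counted in this way. Single sites are therefore not shown to be a trait of the members. Another SOX10 summit lay within 1 kb of 20 members (2.39%, 1.46 to 3.66%), close to the 2.33% (1.69 to 3.13%) of peaks in neither mark beyond 2 kb. For summits inside H3K27ac it was 11.6% (10.5 to 12.7%). Within 2 kb it was 60 members (7.16%, 5.51 to 9.12%), more than the 3.20% (2.45 to 4.11%) of far peaks and fewer than the 17.9% (16.6 to 19.2%) of summits inside H3K27ac. Far peaks were chosen to lie over 2 kb from H3K27ac, so none can have a summit inside H3K27ac within 1 or 2 kb. Members can, so the shares of members and far peaks are not a like comparison at either distance. Of the runs with 2 members, the first 3 in scaffold order were taken. On AKCR02000001.1 a lone acetylated peak of 352 bp at 71641304 to 71641655 had 2 members beside it, as did a lone peak of 386 bp at 3705723 to 3706108 of AKCR02000011.1. On AKCR02000002.1 a run of 5.42 kb and 3 acetylated peaks at 44300844 to 44306267 held 2 members in its gaps and no SOX10 summit inside its acetylated peaks.

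SOX10 at these sites had a slightly lower median fold than at sites far from acetylation. Fragments at the summit were more, and the local background was higher. The rule used no strength, but it left out peaks that shared a base with H3K27ac and so bore on width. The 323 such peaks with their summit outside were wider (median 263 against 187 bp), with a median fold of 3.48 and 38 fragments. With the summit deciding overlap, the difference in median fold from far peaks was −0.118, against −0.17. The median fold of SOX10 over local background was 3.26 (quartiles 2.75 and 3.91) for members, 3.43 (2.92 and 4.09) for the 1843 peaks in neither mark beyond 2 kb, and 3.29 (2.80 and 3.99) for the 3492 summits inside H3K27ac. The median number of fragments at the summit, recovered from the authors' fold and −log10 p, was 35 (28 and 42), 30 (24 and 38) and 33 (26 and 42) in the same order. For a single peak with a count of 35 the exact 95% Poisson interval is 24.4 to 48.7. It is not the error of a median over many peaks. The local background was 9.68, 7.99 and 9.41 fragments. At like background the difference had no single direction. By quintiles of background, from lowest to highest, the median fold was 3.67, 3.64, 3.34, 3.26 and 2.67 in members and 3.85, 3.58, 3.34, 3.19 and 2.74 in far peaks. The median fragments were 21, 28, 31, 37 and 41 in members and 21, 27, 31.5, 36 and 43 in far peaks. Fold reached 5 in 59 of 838 members (7.04%, 5.40 to 8.99%), against 8.60% of all SOX10 peaks. The highest fold among members was 8.01, against 11.9 in far peaks and 20.5 inside H3K27ac.

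**Figure D5:**
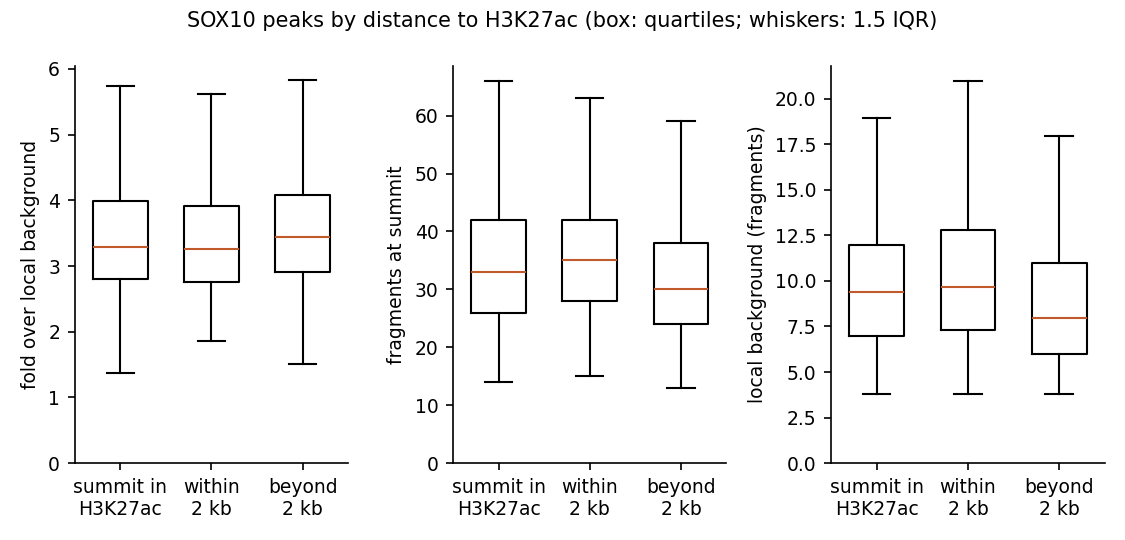
Fold of SOX10 over local background, fragments at the summit and local background in fragments (vertical axes) for SOX10 peaks with their summit inside H3K27ac, the 838 outside both marks within 2 kb of H3K27ac, and those outside both marks beyond 2 kb. Boxes are medians and quartiles, whiskers reach to 1.5 times the interquartile range and points beyond are not drawn; the 3 groups overlap on each axis, and the median background is 9.41, 9.68 and 7.99.

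Within the members, proximity went with more fragments and with a higher background, and hardly with fold. Members within 400 bp had a median of 36 fragments over a background of 9.98, and those from 401 to 2000 bp had 27 over 7.13, with folds of 3.24 and 3.33. Across the 838 members Spearman's rho of distance was −0.222 with fragments, −0.249 with background and 0.0598 with fold, and neighbouring peaks share 1 library. By quintiles of fragments over all SOX10 peaks, from fewest to most, the share that were members within 400 bp was 4.83%, 7.82%, 11.1%, 13.8% and 12%. By quintiles of background it was 3.49%, 9.37%, 11.2%, 11.0% and 13.8%. Members from 401 to 2000 bp showed the reverse, at 5.64% in the lowest quintile of fragments and 1.40% in the highest. The part of background in these orders was not tested. SOX10 fold was almost unrelated to the fold of the acetylated region beside it (rho = 0.0463) and to its width (rho = −0.00695).

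H3K27me3 was less often close to these sites than to SOX10 sites far from acetylation. Members were chosen to lie near H3K27ac and far peaks away from it. No moved intervals were set beside these shares, so the part of the layout of both marks was not tested. An H3K27me3 region lay within 2 kb of 71 member summits (8.47%, 6.68 to 10.6%), against 22.5% (20.6 to 24.5%) of far peaks. For summits inside H3K27ac it was 8.71% (7.79 to 9.69%). That group was not chosen to lie outside H3K27me3, as members and far peaks were, so its share is not a like comparison. The median distance of H3K27me3 was 36650 bp from members and 17923 bp from far peaks. Members within 400 bp of acetylation had H3K27me3 within 2 kb in 6.23% of cases (4.49 to 8.39%), and members farther out in 15.8% (11.0 to 21.7%). Members lay on 167 of the 442 scaffolds with SOX10 peaks, and on 109 of the 127 scaffolds that spanned at least 1 Mb. On those, their density had a median of 0.771 per Mb and ran from 0 to 2.51. The share of SOX10 peaks that were members was 13.2% (12.4 to 14.1%) on scaffolds of at least 1 Mb and 9.19% (7.28 to 11.4%) on shorter ones.

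The 10 members of highest fold show both kinds of place. The highest, fold 8.01 with 47 fragments and a local background of 4.99, lay at 1009524 to 1009829 of AKCR02000113.1, in a gap of 1115 bp inside a run of 5 acetylated peaks. Its summit was 347 bp from a region of 821 bp with an H3K27ac fold of 5.80. The next, fold 7.13 with 76 fragments, lay at 26410717 to 26411040 of AKCR02000001.1, 211 bp from a lone acetylated peak of 568 bp. The other side held no acetylated peak for 185548 bp. On AKCR02000035.1 a peak of fold 7.09 at 6409322 to 6409647 had its summit 212 bp from a lone region of 615 bp, and on AKCR02000007.1 a peak of fold 6.77 at 18875953 to 18876175 was 217 bp from a region of 419 bp. A peak of fold 6.44 at 13564906 to 13565312 of AKCR02000005.1 held 88 fragments, 266 bp from a lone region of 360 bp. Of these 10 peaks, none had a nearest region that held a SOX10 summit. Over all members the share was only 4.42%, so this does not set the 10 apart.

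The other 5 of the 10 lay farther from the edge. On AKCR02000194.1 a peak of fold 6.68 at 67725 to 67994 was 642 bp from an acetylated peak of 254 bp, the narrowest width in the list. The peak of fold 6.68 at 11617686 to 11617935 of AKCR02000019.1 was 881 bp from acetylation and 341 bp from H3K27me3. A peak of fold 6.84 at 2886284 to 2886466 of AKCR02000063.1 was 1030 bp away, one of fold 6.35 at 1379548 to 1379928 of AKCR02000030.1 was 1192 bp away, and one of fold 6.40 at 15744050 to 15744406 of AKCR02000014.1 was 1750 bp away.

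By fragments, the first was a peak with 101 fragments and a local background of 19.96 at 10547818 to 10548160 of AKCR02000016.1, in a gap of 638 bp, with a fold of 4.87. It was followed by the peak with 88 fragments named above. A peak with 86 fragments at 3342596 to 3343021 of AKCR02000048.1 lay in a gap of 537 bp, 223 bp from an acetylated region of 2245 bp on one side and 315 bp from the other flank. One with 79 fragments at 1330332 to 1330650 of AKCR02000023.1 lay in a gap of 425 bp, with its summit 181 and 245 bp from the flanks. The widest peak of all members, 740 bp with 83 fragments at 167346 to 168085 of AKCR02000032.1, was 355 bp from a lone region of 387 bp.

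The summits nearest to an edge were 28, 35 and 36 bp away, with folds of 2.62, 2.23 and 2.14. The third of them, at 6051481 to 6051651 of AKCR02000025.1, lay in a gap of 334 bp inside a run of 21 acetylated peaks and 93.8 kb. Just inside the limit of 2 kb were summits at 1996, 1989 and 1984 bp, with folds of 6.34, 2.67 and 2.47. Just outside it were summits at 2014, 2041 and 2063 bp, with folds of 3.47, 3.97 and 2.92.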

How the data were processed

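MACS3 3.0.0, SAMtools 1.16, Bowtie2 2.2.9 and bcl2fastq 2.20 are listed, with no role, in the submitters' processing notes. The sources used here state neither their settings, nor the control library, nor a genome build. The authors deposited 1 peak list per library, narrow for SOX10 and broad for both histone marks, with a fold enrichment (a ratio over local background) and −log10 values of p and q for each peak. No q-value the authors deposited exceeded 0.0462 in the SOX10 list, 0.0968 in that of H3K27ac or 0.0965 in that of H3K27me3. SOX10 peak names hold the words keepdupauto. Each SOX10 summit position is the authors'. Per the labels' protocols, chromatin was fixed in 1% formaldehyde for 15 min and sheared to 300 to 500 bp on average, which limits how sharply an edge can be placed, and libraries were read as single 75 nt ends.

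Overlap meant at least 1 shared base, distance 1 is the adjacent base, and positions are counted from 1. A scaffold's span is the highest peak end on it. Each moved interval kept its width and scaffold and was left out where it passed the span, which left 5847 to 6337 of 6579 per offset. Nothing was drawn at random, and moved intervals are a background, not a test. Densities used the sequence within the spans. Fragments were solved from fold, (fragments + 1) / (background + 1), and the Poisson tail p: for each peak a whole number gave the authors' −log10 p to within 0.000645, and the next best number missed by at least 0.00399. The procedures were tested on simulated data. Python 3.11.15, NumPy 2.4.6, pandas 2.3.3, SciPy 1.17.1 and Matplotlib 3.10.9 were used.

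The members, limits and comparisons were chosen with earlier results of these data known. Named peaks are the 10 members of highest fold, the 5 with most fragments, the 3 nearest to H3K27ac, the 3 on either side of 2 kb, and the 3 runs with most members. The alternatives were stricter SOX10 or H3K27ac peaks, the summit as the overlap, distances of up to 1 or 5 kb, distance from the end of the SOX10 peak, scaffolds of at least 1 Mb, other joining gaps and shorter moves.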

Additional observations from a re-analysis of the deposited data

How the results depend on the processing

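Of 74 recalculations, 43 stayed within the counting interval of the first value, or within 1.5 times a count. In those named here the value moved further, and where the construction does not fix the change the cause was not tested. With SOX10 peaks of −log10 q at least 5 there were 480 members, 82.9% of them within 400 bp at 5.46 times the moved intervals, and the difference in median fold from far peaks was −0.226 (first −0.17). With H3K27ac peaks of −log10 q at least 3 the share in gaps was 28.2%, the share within 400 bp 72.4%, the median width of the nearest region 736 bp (1059 bp over all peaks of that list), and the share of nearest regions with a SOX10 summit 6.08%. With the summit deciding overlap, the median distance was 173 bp, the share in gaps 43.5%, the share within 400 bp 82.9%, the width 590 bp, the ratio to moved intervals 1.63 and the difference in fragments from far peaks 6 (first 5). With distances of up to 1 kb these were 198 bp, 42.3% in gaps, 86.8% within 400 bp and a ratio of 2.09. With up to 5 kb they were 272.5 bp, 31.1%, 61.0% and a ratio reversed to 0.789, with 6.65% of nearest regions holding a summit. Measured from the end of the SOX10 peak, the median distance was 120 bp and the ratio within 400 bp was 3.69. On scaffolds of at least 1 Mb the ratio was 1.42 in all and 5.21 within 400 bp. Moves of 4 to 20 kb reversed the ratio in all to 0.885 and gave 2.96 within 400 bp. Joining gaps of up to 2 or 12 kb gave 29.8% and 48.0% in gaps. Both results that use 400 bp, with their alternatives, were chosen after seeing the data. No replicate could be left out. No paired analysis was possible because every antibody was used on a single library. As to depth, no member summit held fewer than 15 fragments, so weaker sites are not covered.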
